A study of Mus musculus with 65 samples.

Results

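Motor neuron progenitors, called pMN, were followed over 1 day of differentiation, from day 4 to day 5, in 10 of the 65 RNA libraries of the series. Every pMN library that carried a day 4 or day 5 label was used. Mouse HM1 embryonic stem cells were first turned into neuromesodermal progenitors (NMPs), the day 3 starting population. From day 3 onwards all cultures received 100 nM retinoic acid, together with 0, 10, 100 or 500 nM of the Smoothened agonist SAG, which switches on Sonic hedgehog (Shh) signalling. pMN cells were collected at 100 and 500 nM SAG. RNA was taken from fixed cells after staining of nuclear proteins and flow sorting, and the pMN gate held cells with SOX2 and OLIG2 protein and without NKX2.2 protein. Day 4 had 2 libraries at 100 nM and 2 at 500 nM SAG, and day 5 had 3 at each concentration. Replicates came from separate differentiations of 1 cell line, and all 10 libraries share the retinoic acid and SAG treatment, so no unpatterned control is part of the day comparison. Other sorted types were p3 (100 and 500 nM SAG), p2 (10 and 100 nM) and p0-1 (0 and 10 nM).

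In the spinal cord the pMN domain is defined by the transcription factor OLIG2 and gives rise to motor neurons, and later to oligodendrocytes. A progenitor leaves the cycle when proneural factors rise and Notch signalling from its neighbours weakens, and the newborn motor neuron then switches on the LIM homeodomain factors ISL1 and LHX3. Before this the NMP programme, which depends on FGF and Wnt signals, is replaced by a neural one. The study placed the main loss of NMP chromatin accessibility between day 3 and day 4.

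Day 4 libraries held between 11014754 and 12566379 reads and day 5 libraries between 8992265 and 11562735, and 4 of the 6 day 5 libraries lay below every day 4 library. Reads were lower on day 5 (p = 0.05, exact two-sided permutation test within SAG concentration, n = 4 and 6). The share of reads in the 10 highest genes also moved, from 4.41% ± 0.0757 (SD) to 4.08% ± 0.206 (p = 0.04, same exact permutation test). Genes detected ranged from 11416 to 14075 on day 4 and from 11493 to 13923 on day 5 (p = 0.77, same exact test), and the lowest day 4 library was replicate 2 at 100 nM SAG. The part of depth in the day comparison was not tested. Sox2 and Olig2 were above 0 in all 10 libraries, at 1076 to 2136 and 447 to 4266 normalised reads. Nkx2-2 was above 0 in 6 of 10 and reached 98.1. In p3 the mean of Nkx2-2 was 54.4 on day 4 and 237 on day 5, and that of Olig2 was 174 and 689. The 5 genes of the sort and domain proteins (Sox2, Olig2, Nkx2-2, Nkx6-1 and Pax6) gave 0 calls between the days. The p3 and floor plate list had a summed level of 1130 to 3279 on day 4 and 1034 to 2912 on day 5, with 0 of 7 tested genes called. The p2 and V2 list stood at 1723 to 2293 and 994 to 2224, with 0 of 6 called. Of the 35 lists looked at, those for mesoderm, neural crest, endoderm and epithelium, endothelium, fibroblasts and cell stress also gave 0 calls with limma and edgeR, and DESeq2 called 1 gene each of the mesoderm, crest, endothelium and stress lists. Mesoderm genes summed to 134 to 353 on day 4 and 0 to 166 on day 5, with 2 of the list at 0 in all 10 libraries. Fibroblast genes summed to 265 to 779 on day 4 and 0 to 250.5 on day 5, which did not overlap, and 4 of the list were at 0 in all 10 libraries. Crest genes summed to 127 to 417 and 171 to 543, endothelial genes to 0 to 84.8 and 0 to 121, and endoderm and epithelium genes to 774 to 1903 and 334 to 1359. The part of these cell types in the day comparison was not tested.

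Among 13964 genes tested, 74 rose and 23 fell from day 4 to day 5, which is 0.53% and 0.165% of those tested (0.695% together). Calls needed an adjusted p under 0.01 (limma, Benjamini-Hochberg) together with a fitted change exceeding 2-fold, averaged over both SAG concentrations. At an adjusted p under 0.05 the count was 225 (1.61%). With no fold threshold, 1650 of the 13964 had an unadjusted p below 0.05 (limma). Values are normalised reads, that is reads divided by 1 size factor per library, and fold changes are on the log2(value + 1) scale. The genes that rose had a median log2 change of 3.77 and those that fell of -5.02, against 0.03 over all genes tested. In 46 of the 74 genes every day 5 library stood above every day 4 library, and in 20 of the 23 every day 5 library stood below. Over all tested genes the same separation was seen in 1.45% upwards and 1.7% downwards. In 11 genes that rose all day 4 libraries were at 0, and in 5 that fell all day 5 libraries were at 0. The fitted log2 change of such a gene depends on the pseudocount, so a fold against 3 reads per library is given for it as a lower bound. The paper describes the RNA of these fixed, sorted cells as low in quality and limited in amount. Whether a value of 0 marks absent RNA or RNA missed in a library was not tested. The count of calls rested on single day 4 libraries. It was 245 without replicate 3 at 100 nM SAG and 46 without replicate 2 at 500 nM SAG, and 51 and 854 with the count models edgeR and DESeq2. With the 10 pMN libraries fitted alone the count was 35, and with replicate number as a block in that fit it was 2. For 43 of the called genes named below, Unc5a, Eno1 and Eno1b not among them, the alternative fits were looked at gene by gene. Of these 43, 15 had a log2 change that moved by over 1.5-fold when 1 library was left out. Of the 14 list genes that were called, edgeR called 7 and DESeq2 12, and of the other 29 of these 43 genes 17 and 26.

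**Figure D1:**
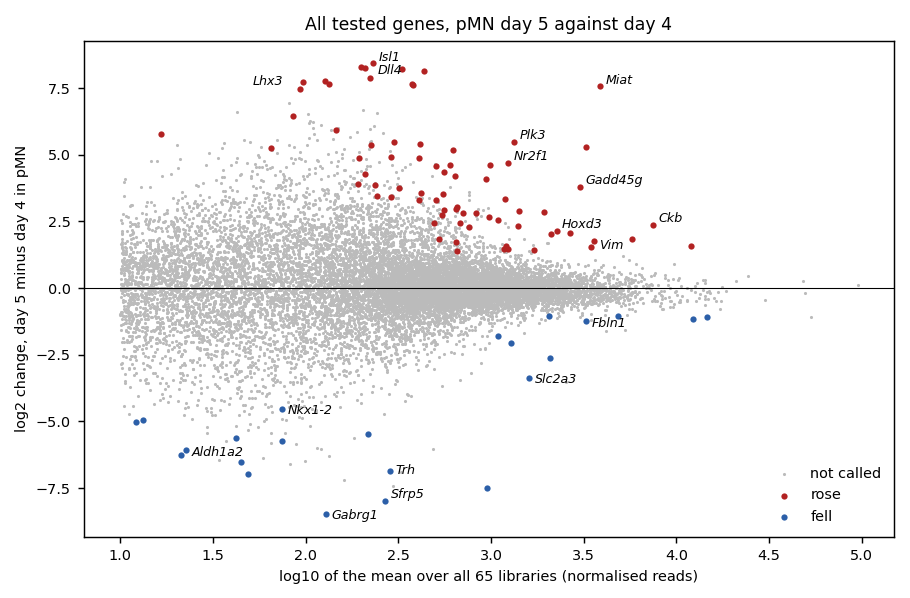
Log2 change from day 4 to day 5 in pMN (vertical axis) against the log10 mean normalised reads over all 65 libraries (horizontal axis) for the 13964 genes tested. Red points are the 74 genes that rose, blue points the 23 that fell and grey points the genes that were not called.

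Motor neuron genes gave 2 calls. Of 12 tested members 2 rose and 0 fell, all 12 had a positive change, and their median was 2.74. Over all tested genes 0.53% rose. At an unadjusted p below 0.05 there were 9 of the 12, and edgeR called 0 and DESeq2 4. Over all 13964 tested genes the counts were 1650 at that unadjusted p, 51 with edgeR and 854 with DESeq2. The unadjusted, edgeR and DESeq2 counts of each list below are to be read beside these. Isl1, a LIM homeodomain factor that sets motor neuron identity (chr13:116298270-116309688, mm10), was at 0, 0, 0 and 9.58 normalised reads in the 4 day 4 libraries. On day 5 it ranged from 257 to 1471 with a median of 686. No day 5 library came near the day 4 level, and the log2 change was 8.43 ± 1.27 (SE, adjusted p = 2.39e-05). Lhx3, the partner of ISL1 in the motor neuron complex (chr2:26200212-26208249), was at 0 in all 4 day 4 libraries. It reached 67.6 to 556 on day 5, median 230. That is at least 103-fold higher (log2 change 7.73 ± 1.34, adjusted p = 0.000244), and the groups did not overlap.

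Isl1 and Lhx3 kept their calls in all 10 fits that each left out 1 library, with Isl1 at 7.58 or 9.28 without 1 or the other day 4 library at 500 nM SAG. With edgeR they had adjusted p-values of 0.0249 (Isl1) and 0.107 (Lhx3) and were not called, and DESeq2 called both. Chat and Mnx1 did not pass the test. Chat, the enzyme that makes acetylcholine, was at 0 in every day 4 library and at 0 to 96.0 on day 5 (adjusted p = 0.137). Mnx1, which keeps motor neurons apart from interneurons, was likewise at 0 on day 4 and at 0 to 238.5 on day 5 (adjusted p = 0.175). Genes shared by all neurons gave 0 calls among 24 (4 at an unadjusted p below 0.05, 0 with edgeR and 6 with DESeq2), with a median log2 change of 0.43 and 12 changes positive and 12 negative, and their summed level was 3586 to 5126 on day 4 and 4280 to 7082 on day 5. In bulk libraries more cells of a state and more RNA per cell cannot be told apart, and the sort kept cells with SOX2 protein.

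The promoter of Lhx3 is shown because it holds one form of the E-box to which proneural bHLH factors bind, in the 250 bases before one of its annotated starts. The stretch lies at chr2:26206758-26206817 on the minus strand of GRCm38.p6, from RefSeq, and capitals mark the E-box, which begins 215 bases before that start.
Lhx3: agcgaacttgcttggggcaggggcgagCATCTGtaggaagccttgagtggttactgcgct
Over the promoter window of 250 bases before to 50 after the start, CAGATG or its reverse complement CATCTG was in 7 of the 62 promoters of genes that rose (11.29%). The shares were 13.33% for genes that fell (2 of 15), 13.44% over all tested genes with a promoter sequence and 19.23% over all promoters in the table. The wider motif CANNTG, which includes both, was in 56.45%, 80%, 66.96% and 74.99%. For both motifs the share in genes that rose was below that over the tested genes.

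Proneural genes, which commit progenitors to the neuronal fate, had a median log2 change of 3.15 over 13 tested members, and 12 of the 13 changes were positive. One of them rose. Neurog1 was at 0, 0, 0 and 1.60 on day 4 and at 14.9 to 82.7 on day 5, median 58.7. The groups did not overlap (log2 change 5.24 ± 0.90, adjusted p = 0.000225). The other 12 were not called with limma, whereas DESeq2 called 8 of the 13 and edgeR 1. An unadjusted p below 0.05 was seen in 10 of the 13, against 1650 of all 13964 tested genes. Neurog2, the main proneural factor of the pMN domain, was at 161, 381, 169 and 101 on day 4 and at 305 to 1397 on day 5 (log2 change 2.11, adjusted p = 0.386). Hes6, which opposes Hes repressors, was at 346, 436, 395 and 538 on day 4 and at 817 to 1809 on day 5, without overlap (1.38, adjusted p = 0.0144). Neurod1 had a log2 change of 4.19 (adjusted p = 0.0276) and Nhlh2 of 6.11 (adjusted p = 0.0339).

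Notch ligands gave 1 call of 5. Dll4, a Delta ligand (chr2:119325784-119335666), was at 0 in all 4 day 4 libraries and at 107 to 545 on day 5, median 256. It was at least 104-fold higher (log2 change 7.87 ± 1.55, adjusted p = 0.00173). Its call was lost without replicate 2 of either day 4 concentration, with a highest adjusted p of 0.0153, and with edgeR (adjusted p = 0.0143). Its exons overlap Gm14207 on the other strand, from which its reads cannot be separated here. Dll1 and Dll3 had log2 changes of 1.4 and 1.62 (adjusted p = 0.0631 and 0.137), and every day 5 library of Dll3 lay above every day 4 library. Notch receptors and modifiers gave 0 calls of 9 (median 0.73, 4 at an unadjusted p below 0.05, 0 with edgeR or DESeq2), and Notch target genes 0 of 6 (median 0.33, 3 unadjusted, 0 with edgeR and 2 with DESeq2). Of these 6 changes 3 were positive and 3 negative. Hes5, the main neural Notch target, was at 4685, 5388, 5843 and 4146 on day 4 and at 6987 to 10681 on day 5, without overlap (0.91, adjusted p = 0.133). Hey1 was at 0, 0, 0 and 40.7 against 151 to 540 (6.58 ± 1.54, adjusted p = 0.0123).

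Gadd45g, a stress and cell cycle exit gene that is a known target of proneural factors (chr13:51846675-51848474), gave the smallest p of the named genes. Its values were 347, 362, 480 and 566 on day 4 and 5439 to 6986 on day 5, median 5826. The means differed 13.6-fold (439 ± 103 and 5976 ± 575, SD), with a log2 change of 3.79 ± 0.35 and an adjusted p of 2.09e-10. Both ranges were narrow beside the gap between them. It was the 1 cycle regulator called of 11 tested, and the other cycle lists gave no calls with limma, edgeR or DESeq2. These were 18 G1/S genes (median -0.27, 0 at an unadjusted p below 0.05) and 18 G2/M genes (median -0.11, 1 unadjusted). Cdc25b, a phosphatase that drives entry into mitosis and is outside these lists, rose from 509, 256, 18.2 and 521 to 1011 to 1504, median 1252 (log2 change 2.68 ± 0.46, adjusted p = 0.000223). The low day 4 library decided that call, since without replicate 2 at 500 nM the adjusted p was 0.0506, and with edgeR it was 0.0164.

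**Figure D2:**
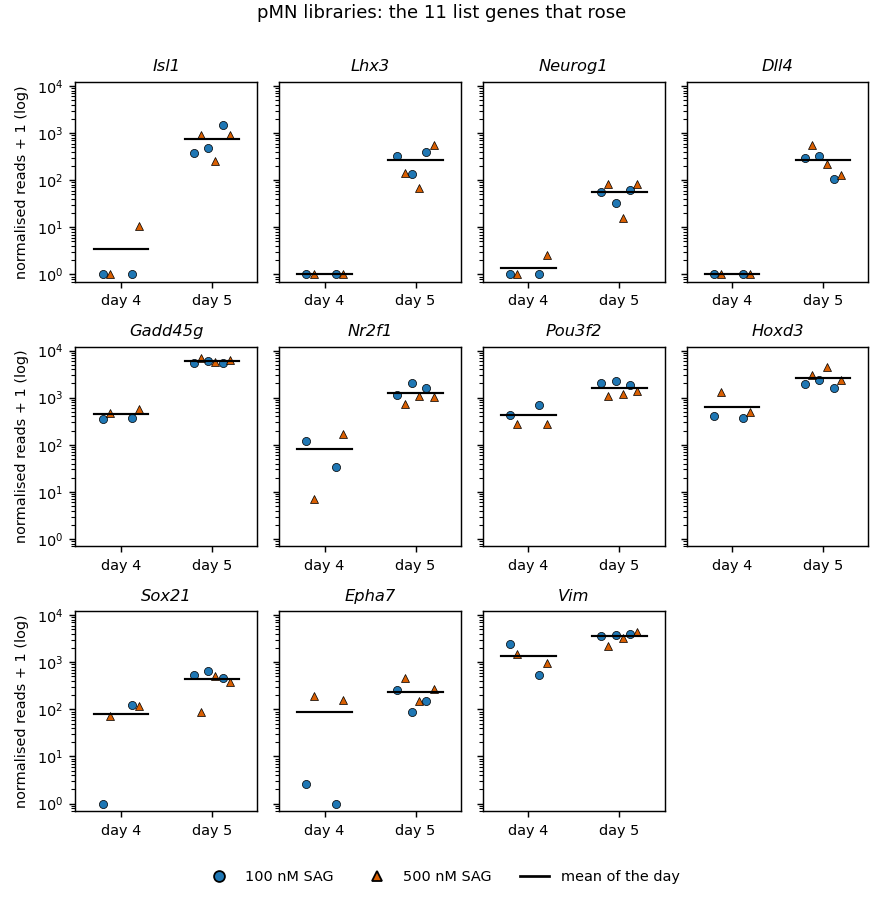
Normalised reads plus 1 (log axis) in each pMN library on day 4 and day 5 for the 11 genes of the lists that rose. Circles are 100 nM and triangles 500 nM SAG, and the bar is the mean of the day. Isl1, Lhx3 and Dll4 sit at or near 0 on day 4, while Sox21, Epha7 and Vim overlap between the days.

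Temporal transcription factors, which mark birth order of neurons along the spinal cord, gave 2 calls upwards of 14 tested (median 1.79, 12 of 14 positive). Nr2f1, an orphan nuclear receptor (chr13:78188975-78198873), was at 120, 32.8, 6.08 and 166 on day 4 and at 733 to 2052 on day 5, median 1127. The lowest day 5 library was above the highest of day 4 (4.69 ± 0.57, adjusted p = 1.85e-07). Its log2 change was 3.55 or 5.83 without 1 or the other day 4 library at 500 nM SAG, and the call was kept in those fits. Nr2f1 lost its call in 2 of 22 alternative settings (highest adjusted p = 0.152). Its exons overlap those of A830082K12Rik on the other strand. Its promoter holds the same E-box form, 31 bases before one of its annotated starts (chr13:78196450-78196507, minus strand, GRCm38.p6, from RefSeq), shown for comparison with that of Lhx3 and with the E-box in capitals.
Nr2f1: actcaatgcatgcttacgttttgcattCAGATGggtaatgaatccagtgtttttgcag
Pou3f2, a POU factor of neural progenitors and neurons also known as Brn2, was at 425, 709, 272 and 269 and then at 1063 to 2302, median 1601 (2.02 ± 0.39, adjusted p = 0.00132). These groups did not overlap either, but the call was lost without replicate 2 of either day 4 concentration (highest adjusted p = 0.0223). Nr2f2 and Pou3f3 had log2 changes of 2.00 and 3.77 (adjusted p = 0.0312 and 0.0144).

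Hox genes, which set position along the body axis, were 21 of 39 tested. Hoxd3 rose. It was at 405, 366, 1313 and 504 on day 4 and at 1573 to 4571 on day 5, median 2386, with no overlap (2.15 ± 0.33, adjusted p = 3.91e-05). Its exons overlap those of Gm38462 on the other strand. The other 20 were not called with limma. Over the 21, edgeR called 1 and DESeq2 5, and 10 had an unadjusted p below 0.05, against 1650 of all 13964 tested genes. Of the changes 16 were positive and 5 negative (median 1.37). In 6 of the 21 every day 5 library was above every day 4 library, against 1.45% over all tested genes. Those 6 were Hoxb2, Hoxb4, Hoxb5, Hoxc4, Hoxd3 and Hoxd4. Hoxb4 ranged from 40.8 to 136 on day 4 and from 247 to 676 on day 5 (2.24, adjusted p = 0.0499). Hoxb5 ranged from 8.69 to 182 and from 328 to 661 (2.82, adjusted p = 0.0928). The summed level of the Hox genes was 3216 to 4016 on day 4 and 7497 to 10539 on day 5.

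Progenitor and glial genes gave single calls. Sox21, a SoxB2 repressor that promotes neuronal differentiation, was the 1 gene called of 7 SoxB and SoxC genes. It was at 0, 124, 73.0 and 120 on day 4 and at 86.9 to 642 on day 5, median 494, and 1 day 5 library lay within the day 4 range. The log2 change was 3.54 ± 0.68 (adjusted p = 0.00133), but 1.79 with an adjusted p of 0.146 without the day 4 library that was at 0. The call was also lost without replicate 2 of day 4 at 500 nM SAG and with edgeR (adjusted p = 0.0563). Its exons overlap those of LOC105245869 on the other strand. Vim, the intermediate filament of neural progenitors, rose from 2417, 546, 1483 and 964 to 2262 to 4306, median 3679 (1.56 ± 0.29, adjusted p = 0.000807), and was the 1 call among 11 glial genes. The ranges overlapped, and the adjusted p reached 0.0369 when replicate 3 of either day 4 concentration was left out. Sox9, which readies progenitors for glial fates, was at 161, 205, 99.9 and 150 against 408 to 664 (1.80, adjusted p = 0.208), without overlap.

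Among NMP genes 1 fell. Nkx1-2, a homeobox gene of NMPs and of the preneural tube, was at 230, 46.4, 0 and 25.5 on day 4 and at 0 in all 6 day 5 libraries. It was at least 23.4-fold lower (log2 change -4.54 ± 0.95, adjusted p = 0.00391). One day 4 library was also at 0, and without replicate 2 at 100 nM or replicate 3 at 500 nM the call was lost (highest adjusted p = 0.0881). Neither count model called it (adjusted p = 0.101 with edgeR and 0.736 with DESeq2). The 3 NMP libraries of day 3 held 872 to 1563 of it. It was the 1 call of 16 NMP genes, 11 of which had a negative change (median -0.37). Cdx1 and Cdx2, caudal homeobox genes of the posterior embryo, were at 0 in every day 5 library and above 0 in 2 of the 4 day 4 libraries each (adjusted p = 0.015 and 0.059).

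Aldh1a2, the main enzyme that makes retinoic acid in the embryo (chr9:71215789-71296243), was at 174, 200, 3.48 and 133 on day 4. It was at 0 in all 6 day 5 libraries and in the 5 pMN libraries of day 6. The fall was at least 39.7-fold (log2 change -6.08 ± 0.80, adjusted p = 1.67e-06) and was called without any 1 library (log2 change -7.31 to -4.86, the day 4 libraries at 500 nM SAG moving it most), but not with edgeR (adjusted p = 0.0524) or DESeq2 (adjusted p = 0.644). It was the 1 call among 15 retinoic acid genes, whose median was 0.02. Stra6, the retinol transporter, was at 463, 463, 1341 and 508 against 0 to 180 (-4.03 ± 1.72, adjusted p = 0.309), without overlap. Crabp2, which carries retinoic acid to the nucleus, was at 7209 to 8804 on day 4 and at 7264 to 11336 on day 5 (0.15 ± 0.16, adjusted p = 0.836).

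Among 19 Wnt genes Sfrp5, a secreted Wnt antagonist, fell from 417, 693, 471 and 493 to 0 in 5 of 6 day 5 libraries and 67.6 in the sixth. No library overlapped (-7.98 ± 1.54, adjusted p = 0.00133), although the adjusted p was 0.0126 without replicate 2 of day 4 at 500 nM SAG and 0.0401 with edgeR. The list had a median of -0.00 and 1 call in all. FGF feedback genes had a median of -0.60, 11 of 14 negative, and 0 were called (1 at an unadjusted p below 0.05, 0 with edgeR and 2 with DESeq2). Etv5, an FGF-induced ETS factor, was at 463, 277, 170 and 136 and then at 0 to 89.4, with a day 5 median of 0 (-6.04 ± 1.65, adjusted p = 0.0397).

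**Figure D3:**
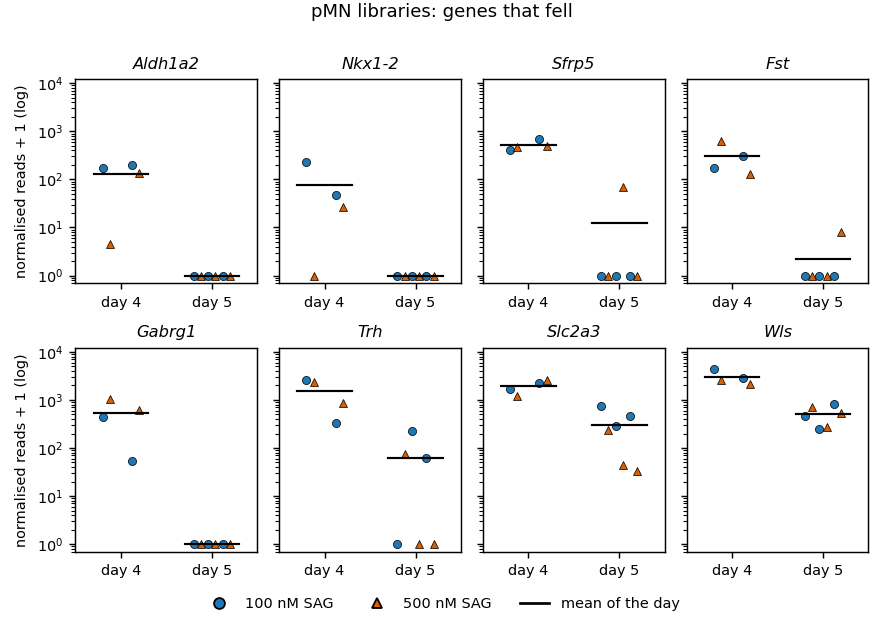
Normalised reads plus 1 (log axis) in each pMN library for 8 genes that fell. Circles are 100 nM and triangles 500 nM SAG, and the bar is the mean of the day. Aldh1a2, Nkx1-2 and Gabrg1 are at 0 in all 6 day 5 libraries, and only Nkx1-2 of the 8 has a day 4 library at 0.

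The lists held 350 of the 13964 genes tested and 14 of the 97 calls. The other 83 calls lay outside the lists. The 12 that rose most among genes with separated groups included several noncoding transcripts. Miat, a nuclear long noncoding RNA of neurons, was at 141, 0.800, 0 and 280 on day 4 and at 1441 to 4521 on day 5, median 3482. The groups did not overlap and the means differed 31.1-fold (7.56 ± 1.01, adjusted p = 2.12e-06). The log2 change ran from 5.53 to 9.60 when 1 library was left out, and each of the 4 day 4 libraries moved it by over 1.5-fold. With the 10 pMN libraries fitted alone Miat was not called (adjusted p = 0.107). 2900092D14Rik begins 126 bases after the end of Pou3f3 on the same chromosome and was at 0.800, 0, 0 and 0, then at 180 to 626 (8.15 ± 1.11, adjusted p = 3.33e-06). The value of 0.800 is 1 read.

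Hosts of microRNAs were among them. Mir100hg (chr9:41376526-41615183) was at 0 in every day 4 library and at 104 to 445 on day 5, median 191, which is at least 87.5-fold higher (adjusted p = 5.92e-06). Mir124a-1hg, host of the main neuronal microRNA, was at 0, 0, 0.869 and 0.798 against 156 to 375, median 281 (7.65 ± 1.08, adjusted p = 6e-06). Neither host overlapped between the days, and exons of Mir124a-1hg overlap those of Gm51272 on the other strand.

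Further genes of this kind were looked at after their values were seen. Mir99ahg was at 0 in all 4 day 4 libraries and at 0 to 546 on day 5, median 46.2, which is at least 50.6-fold higher by the means. It overlapped, and it kept its call in 4 of the 10 fits that left out 1 library. The hairpin gene Mir219a-2 (chr2:29845631-29845727, minus strand) rose from 298, 363, 310 and 326 to 759 to 967, median 820. Those groups were tight and separate (1.37 ± 0.28, adjusted p = 0.00293), and the call was kept in 7 of the 10 fits. miR-219 is known for its part in oligodendrocyte differentiation.

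The mature microRNAs of these loci are shown to let the seeds be compared, with bases 2 to 8, the seed, in capitals. They come from RefSeq on GRCm38.p6. miR-100-5p and miR-125b-5p lie inside Mir100hg. miR-99a-5p and let-7c-5p lie 40512 and 41244 bases past the annotated end of Mir99ahg on the same strand. miR-219a-5p lies inside Mir219a-2.
miR-100-5p: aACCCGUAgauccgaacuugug
miR-99a-5p: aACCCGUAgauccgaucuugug
miR-125b-5p: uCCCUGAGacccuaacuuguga
let-7c-5p: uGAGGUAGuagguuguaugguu
miR-219a-5p: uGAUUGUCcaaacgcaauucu
miR-100-5p and miR-99a-5p share the seed ACCCGUA, so the loci on chromosomes 9 and 16 carry microRNAs of 1 seed family. Libraries of this kind do not measure mature microRNAs, and no level is given for them. Lin28a, a classic let-7 target, was at 2151, 1354, 992 and 1748 on day 4 and at 635 to 2377 on day 5 (-0.76, adjusted p = 0.46).

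The remaining genes that rose, also picked for separated groups, had varied roles. Plk3, a polo-like kinase of the stress response, was at 0.800, 219, 167 and 231 and then at 2355 to 3464, median 2790 (5.49 ± 0.65, adjusted p = 1.73e-07), without overlap. Leaving out either day 4 library at 100 nM SAG moved its log2 change to 3.76 or 7.22, and the call was kept in those fits. Plk3 lost its call in 2 of 22 alternative settings (highest adjusted p = 0.256). Its exons overlap those of Tctex1d4 on the other strand. Chrna3, a nicotinic acetylcholine receptor subunit, was at 0 in all day 4 libraries and at 45.1 to 653 on day 5, at least 152-fold higher (adjusted p = 0.000244). It shares exon sequence with Chrna5 on the other strand. Il4ra (a subunit of the interleukin-4 receptor), Fcgrt (the neonatal Fc receptor heavy chain), Gcnt4 (a glycosyltransferase) and Stk32a (a kinase) were also at 0 in every day 4 library, with day 5 means at least 125-fold, 141-fold, 98.7-fold and 72.1-fold above 3 reads. Gcnt4 lost its call in each of the 10 fits that left out 1 library (adjusted p = 0.0126 to 0.0532) and Fcgrt without replicate 2 of day 4 at 500 nM SAG (0.0112). With edgeR Gcnt4 and Stk32a were not called (adjusted p = 0.0443 and 0.014). Rgs8, a regulator of G protein signalling, had 37.4 in 1 day 4 library and 0 in the other 3, and 105 to 452 on day 5 (adjusted p = 0.00472). Its call was kept in 4 of the 10 fits (highest adjusted p = 0.0745) and not with edgeR (adjusted p = 0.191). Hk3, a hexokinase, was at 0, 0, 0 and 15.2 and then at 232 to 567. Its call was lost without replicate 2 of day 4 at 500 nM SAG (adjusted p = 0.0425) and with edgeR (adjusted p = 0.0153), and its exons overlap those of the netrin receptor gene Unc5a on the other strand, which rose as well (2.85 ± 0.40, adjusted p = 5.92e-06).

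Ckb and Igdcc3 had the smallest p-values after Gadd45g and were picked for that. Ckb, brain creatine kinase, was at 2018, 2706, 2039 and 1636 and then at 6622 to 14112, median 10970 (2.38 ± 0.24, adjusted p = 3.08e-09). Igdcc3, an immunoglobulin family receptor of the early neural tube, had a log2 change of 1.57 ± 0.17 (adjusted p = 1.94e-08), with day 4 values of 4784, 3484, 4005 and 4134 and day 5 values of 8161 to 14853. In both every day 5 library was above every day 4 library.

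Of the genes that fell outside the lists, Gabrg1, a GABA-A receptor subunit, was at 448, 53.6, 1036 and 618 on day 4 and at 0 in all 6 day 5 libraries, at least 168-fold lower (adjusted p = 0.000403). Fst, the activin antagonist follistatin, fell from 174, 309, 637 and 128 to 0 in 5 libraries and 7.01 in the sixth (-7.51 ± 0.90, adjusted p = 1.85e-07). Neither overlapped. In the NMP libraries Fst stood at 10586 to 28000 and Gabrg1 at 0, so these 2 genes came to day 4 from opposite levels. Trh, which encodes the precursor of thyrotropin-releasing hormone, was at 2656, 336, 2404 and 881 and then at 0 to 225, median 29.9 (-6.87 ± 1.54, adjusted p = 0.00794). Phlda2, an imprinted growth regulator, was at 104, 117, 172 and 117 and then at 0, at least 39.6-fold lower (adjusted p = 0.000269).

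Further genes fell outside the lists. Slc2a3, the glucose transporter GLUT3, was at 1652, 2294, 1188 and 2624 and then at 31.5 to 750, median 263 (-3.36 ± 0.72, adjusted p = 0.00472). Wls, which carries Wnt ligands to the cell surface, was at 4388, 2893, 2592 and 2103 and then at 243 to 838, median 508 (-2.63 ± 0.60, adjusted p = 0.00844). The groups did not overlap in either gene, which was a condition for being named here. Copz1, Selenos and Fbln1 had log2 changes of -2.06, -1.81 and -1.22, and Cthrc1, Tnfaip2 and Nab2 had -6.50, -6.26 and -5.63. Calls of this group were often lost when 1 library was left out. Wls, Cthrc1 and Nab2 kept theirs in 1 of the 10 fits, Slc2a3 and Tnfaip2 in 2, Trh in 3, Copz1 in 4, Fbln1 in 5 and Selenos in 6, with the highest adjusted p between 0.0365 and 0.0882. Gabrg1, Fst and Phlda2 kept theirs in all 10, but edgeR did not call Gabrg1 or Phlda2 (adjusted p = 0.0505 and 0.0638) and DESeq2 did not call Fst (0.0248). Trh and Nab2 were called by neither count model. Eno1, a glycolytic enzyme, fell from 24219, 26693, 22206 and 24748 to 9290 to 15001 (-1.07 ± 0.16, adjusted p = 2.57e-05), and its near-identical copy Eno1b fell with it, so reads of these 2 genes are uncertain.

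Shh pathway genes gave no calls. The 3 target genes Gli1, Ptch1 and Hhip went uncalled, with a median of 0.09, and of 18 genes for Shh ligand, receptors and transducers 0 were called. At an unadjusted p below 0.05 there were 0 targets and 1 of the 18, edgeR called 0 in both and DESeq2 0 targets and 2 of the 18. Gli1, the most direct readout of the pathway, was at 849, 1518, 1552 and 2087 on day 4 and at 1264 to 2080 on day 5 (0.09 ± 0.71, adjusted p = 0.99). Olig2 itself was at 447, 1801, 1078 and 1187 and then at 1368 to 4266 (1.4 ± 1.25, adjusted p = 0.759). The standard errors leave changes of 2-fold undetected for both, since the median error over all genes was 0.93 on the log2 scale.

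Taken apart by agonist concentration, 82 genes were called at 100 nM SAG (0.587% of those tested) and 14 at 500 nM (0.1%). Of the first, 75 rose (0.537%) and 7 fell (0.0501%), and of the second 11 rose (0.0788%) and 3 fell (0.0215%). No gene passed the test of the difference between the concentrations (0 calls with limma, 0%), where 757 had an unadjusted p below 0.05 and edgeR gave 0 and DESeq2 558. Without replicate 3 of day 4 at 100 nM SAG that count was 98. The 74 genes that rose had a median log2 change of 5.24 at 100 nM and 2.43 at 500 nM, and 16 of them had a log2 change below 1 at 500 nM and 0 at 100 nM. The 23 that fell had medians of -5.30 and -4.61, with 1 gene above -1 at 100 nM and 2 at 500 nM. Epha7, an Eph receptor of axon guidance, is the plainest such case. It was at 1.60 and 0 on day 4 at 100 nM and at 193 and 159 at 500 nM, and at 86.9 to 457 on day 5. Its log2 change was 6.56 at 100 nM and 0.59 at 500 nM, and the difference of -5.96 ± 1.10 had an adjusted p of 0.0252. It was the 1 gene of the 13964 whose difference had an adjusted p below 0.05. Genes detected in the 2 day 4 libraries at 100 nM SAG were 11416 and 12276, the lowest of the 4, and their part in this was not tested. NMP libraries held 1169 to 1873 of Epha7.

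The same day comparison was made in the other progenitor types. Each type has its own libraries, 4 and 6 for p3, 3 and 6 for p2 and 5 and 6 for p0-1 on days 4 and 5. Of the 97 genes called in pMN, 34 were called in the same direction in p3, which is 35.1% of the pMN calls and 3.80% of the 895 called in p3 (6.41% of genes tested). At 500 nM SAG alone, where p3 had 3 day 4 libraries rather than the 1 at 100 nM, p3 had 24 calls and 13 of the 97 were among them in the same direction. In p2 and in p0-1 it was 19 each, 19.6% of the pMN calls, and 70.4% of the 27 called in p2 (0.193%) and 40.4% of the 47 called in p0-1 (0.337%). Gadd45g and Hoxd3 were called in all 4 types. Gadd45g had log2 changes of 3.79 in pMN, 6.77 in p3, 3.40 in p2 and 2.49 in p0-1, and Hoxd3 of 2.15, 2.72, 1.96 and 1.52. Mir100hg, Miat and Fst were called in all 4 as well, with log2 changes of 5.84 to 8.0 for Miat.

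Isl1 and Lhx3 were called in pMN and in no other type. Isl1 had log2 changes of 3.39, 0.55 and 0.44 in p3, p2 and p0-1, where its day 5 means were 34.0, 1.45 and 0.879 against 732 in pMN. The difference in change from p3 was 5.03 ± 1.88 (adjusted p = 0.147), from p2 7.88 ± 1.92 (adjusted p = 0.454) and from p0-1 7.99 ± 1.75 (adjusted p = 0.123), so the difference itself passed in none. For Lhx3 the difference was 6.74 ± 1.99 from p3 (adjusted p = 0.0358), 5.54 ± 2.03 from p2 (adjusted p = 1) and 7.55 ± 1.85 from p0-1 (adjusted p = 0.173), and none was below 0.01.

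Across genes, the change in pMN differed from that in p2 for 0 genes with limma (444 with an unadjusted p below 0.05, 0 with edgeR and 363 with DESeq2). Day 4 of p2 at 10 nM SAG was 1 library, weighted in the contrast like the 2 at 100 nM together. At 100 nM alone, chosen after seeing the data, 0 genes differed (741 with an unadjusted p below 0.05, limma). The change in pMN differed from that in p0-1 for 1 gene, 0.00716% of those tested. This was Btbd17, a BTB domain gene, which in pMN went from 2429, 1557, 2204 and 2839 to 5798 to 10158 (1.77), while its mean in p0-1 went from 1745 to 768 (-1.06). The difference was 2.83 ± 0.49 (adjusted p = 0.00802), and the call was kept in 4 of the 10 fits that left out 1 pMN library (highest adjusted p = 0.0525). From p3 the change differed for 370 genes (2.65%), of which 7 were higher in pMN (0.0501%) and 363 lower (2.6%). Day 4 of p3 at 100 nM SAG was 1 library with 9718 genes detected, the fewest of all 65. At 500 nM alone, an alternative chosen after seeing the data, 0 genes differed between pMN and p3 (410 with an unadjusted p below 0.05).

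**Figure D4:**
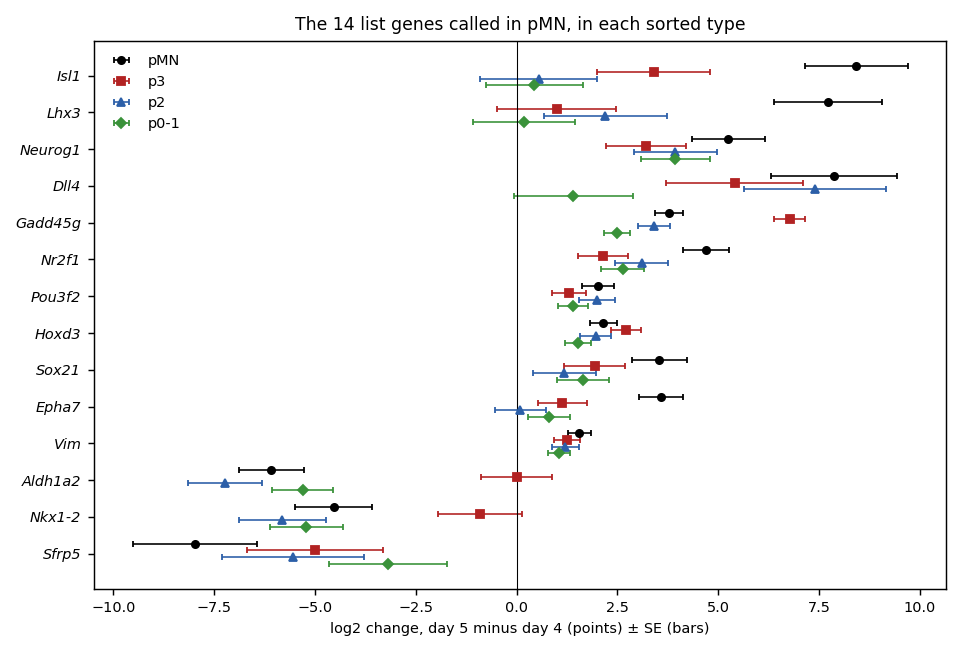
Log2 change from day 4 to day 5 (points, with SE as bars) of the 14 list genes called in pMN, for pMN, p3, p2 and p0-1. Isl1 lies at 8.43 in pMN and between 0.44 and 3.39 in the other types, while Hoxd3 lies between 1.52 and 2.72 in all 4.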

How the data were processed

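RNA of sorted cells was sequenced as SMART-Seq HT and Nextera XT libraries. Per the study's methods, the authors aligned reads to mm10 with STAR in the nf-core rnaseq pipeline, counted them per refGene gene with featureCounts, ignoring duplicates, and dropped libraries that failed quality control. Whether counting used strand is not given in the sources used here. The deposited values, of unit signal, are read counts divided by 1 size factor per library. All of the 834400 values above 0 were whole multiples of their library's step (tolerance 1e-06), so reads were recovered (100%).

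Genes with a mean of at least 10 over the 65 libraries (13964 of 25239) were fitted with limma 3.58.1 (R 4.3.3) on log2(value + 1), with 25 group means, 40 residual degrees of freedom and an intensity trend. The day contrast averaged the 100 and 500 nM differences, and calls needed an adjusted p below 0.01 and over 2-fold. Recovered reads were also tested with edgeR 4.0.16 and DESeq2 1.42.0. On simulated independent counts around 1 mean per gene, the fit made 0 false calls among 13764 unchanged genes. That simulation held no deviating library, so it gives no error rate for the calls in these data. Libraries of 1 group were not identical in any pair. The members, lists and tests were chosen with earlier results of these data known. Named were called list genes, then the 12 called genes per direction with the largest change, a mean of at least 100 and separated groups, and at most 3 genes per direction for each difference. Some list genes are not reported here and were left out of the list counts. Other genes named were chosen after their values were seen. Same-numbered libraries were not paired in the main fit, and the check of their deviations cannot exclude that they are paired. Permutation tests of library measures were exact. Promoter and microRNA sequences came from RefSeq tables (GRCm38.p6), and gene positions from the annotation of that build.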

Additional observations from a re-analysis of the deposited data

Results flagged for a closer look

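Dixon's criterion was applied to 104 groups of 4 day 4 or 6 day 5 values. These were values of named genes and of reads, genes detected and the share of the 10 highest genes. In 19 groups, all of named genes, 1 library was set apart from the rest of its group. In 11 of the 19 every other library of the group was at 0, where any value above 0 is set apart, so the usual rate of about 1 in 20 groups does not apply to them. On day 4, replicate 3 at 500 nM SAG was the library set apart for Isl1 (9.58 normalised reads), Neurog1 (1.60), Hey1 (40.7), Nrarp (153), Slit2 (11.2) and Hk3 (15.2), each with the other 3 libraries lower. Replicate 2 at 500 nM was set apart for Hoxd3 (1313) and Rgs8 (37.4), and replicate 2 at 100 nM for 2900092D14Rik (0.80).

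On day 5, replicate 1 at 100 nM SAG was set apart for Cthrc1 (4.84), Tnfaip2 (5.65) and Nab2 (46.0), and replicate 2 at 100 nM for Mir99ahg (546), Gcnt4 (625) and Trh (225). Replicate 3 at 100 nM was set apart for Hes6 (1809). At 500 nM the values were 89.4 for Etv5 in replicate 1, 67.6 for Sfrp5 in replicate 2 and 7.01 for Fst in replicate 3. In each of these the rest of the group was lower.

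The change from day 4 to day 5 differed between pMN and p3 for 370 genes by the test of the difference. Higher in pMN were Slc31a2 (6.00 on the log2 scale), Borcs7 (4.63) and Prss57 (4.52), and lower were Bcs1l (-8.00), Crnde (-7.95) and Wdr55 (-7.22). Prss57 was listed at 0 in every pMN library of both days, so its difference comes from p3, whose mean went from 131 to 0. That mean rests on the 1 p3 library of day 4 at 100 nM SAG (525 normalised reads), since the other 3 were at 0, and neither edgeR nor DESeq2 called it. When 1 pMN library was left out, Borcs7 kept its call in 5 of 10 fits (highest adjusted p = 0.0285), Wdr55 in 6 (0.0215) and Slc31a2 in 8 (0.0647, log2 difference 4.43 to 7.58). At 500 nM alone, chosen after seeing the data, none of these 6 genes was called, and Borcs7 had a difference of 0.059. Between pMN and p0-1 the change differed for 1 gene, Btbd17 (2.83).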

How the results depend on the processing

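The 97 calls of pMN day 5 against day 4 became 35 with the 10 pMN libraries fitted alone, 61 with day 5 replicate 1 left out at both concentrations, 51 with edgeR, 854 with DESeq2 and 225 at an adjusted p below 0.05. Leaving out 1 library gave 46 to 245, of which 43 to 77 were among the 97. Another pseudocount (95), no filter on low values (92), a filter at a mean of 100 (83), quantile normalisation (98) and array weights (83) stayed within 1.5 times. The genes called changed more than these totals, since 79, 84, 83, 77 and 72 of them, in that order, were among the 97. Same-numbered libraries of days 4 and 5 correlated at 0.02 to 0.07 in their deviations from group means, and the main fit did not pair them. With 2 day 4 libraries per group these deviations mirror each other, so the check cannot exclude pairing. Same-numbered libraries of 100 and 500 nM SAG on the same day were not compared, and the main fit treated them as independent. A replicate block gave 107 calls over all libraries and 2 in the 10 pMN libraries alone. The 0 calls for SAG by day became 3 without the filter, 1 with array weights, 558 with DESeq2, 1 at an adjusted p below 0.05 and 0 to 98 with 1 library left out. The p3 calls, 895, became 24 at 500 nM alone. The 370 genes that differed from p3 became 159 with a pseudocount of 10, 112 with quantile normalisation, 2035 with DESeq2, 604 at an adjusted p below 0.05, 0 at 500 nM alone and 304 to 392 with 1 library left out. Against p2, 0 stayed at 0 with 100 nM alone and became 31 without the filter, 363 with DESeq2 and 0 to 39 with 1 library left out. Against p0-1, 1 became 2 with a pseudocount of 10, 4 without the filter, 0 with array weights, 0 without day 5 replicate 1, 549 with DESeq2, 2 at an adjusted p below 0.05 and 0 to 58 with 1 library left out. The cause of these moves was not tested. The fits at 500 nM alone for p3 and at 100 nM alone for p2 were chosen after seeing the data.

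The 2023 values of the 97 called genes under these alternatives all kept their sign. Of the 43 called genes looked at gene by gene, Gadd45g alone was called under all 22 alternatives. Of the 97, 30 were called in every fit that left out 1 library. Without 1 day 4 library at 500 nM SAG the log2 change was 1.49 or 3.87 for Cdc25b, 5.15 or 7.78 for Rgs8, 6.60 or 8.61 for Hk3 and -5.72 or -3.35 for Nkx1-2, and without 1 at 100 nM it was 1.79 or 5.28 for Sox21 and -9.23 or -7.71 for Gabrg1. Trh ran from -7.91 to -5.72 over 5 libraries of both days. With 2 day 4 libraries per concentration and a median error of 1.32 on the log2 scale at 1 concentration, changes near 2-fold were not detectable for most genes.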
